A study of Mus musculus with 6 samples.

Results

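The nuclear pore complex genes are those that encode the proteins of the channel through which molecules enter and leave the nucleus. They were taken by name from a gene expression table of RAW264.7 cells, a mouse macrophage-like line that was derived from a tumour induced by a leukaemia virus. Protein-coding genes whose name is Nup followed by a digit were included, together with Pom121, Seh1l, Ndc1, Tpr, Ranbp2, Aaas, Rae1, Sec13 and Gle1. This gave 30 genes of the 56748 in the table. The rule itself used no measured value, but this group of genes was chosen with earlier results of these data known.

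Of the 6 libraries, 3 came from cells infected with lentivirus carrying Fbxw11 (pMSCV-Fbxw11-pGk-GFP). The other 3 came from cells infected with lentivirus carrying the control vector, in libraries titled GFP. Both kinds of cell were sorted before RNA was taken. All 6 share the same transformed line, with no other allele or agent named in the labels. Fbxw11 encodes an F-box protein that selects substrates for an SCF ubiquitin ligase, and the series title links it to macrophage polarization. Separate infections or cultures are not named in the labels for the replicate libraries, and the spread on which the p-values rest may therefore be a technical one.

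The nuclear pore complex is built from many copies of each of its nucleoporins. A scaffold of outer and inner rings is anchored in the nuclear envelope, and nucleoporins rich in phenylalanine-glycine (FG) repeats fill the channel and bind the transport receptors. Filaments on the cytoplasmic side serve the release of exported RNA, and a basket faces the nucleus. Dividing cells assemble new pores both as the envelope forms again after mitosis and during interphase, and the Y-shaped outer ring complex also sits at kinetochores in mitosis.

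Values were deposited as FPKM, fragments divided by gene length and by a library size the authors set. Comparisons of level between genes rest on the length given for each gene, and how that length was defined was not examined. Each library held between 16191971 and 18951653 reads, recovered from the FPKM values. Fbxw11 itself checked the labels, at 36.1 ± 0.409 FPKM in control libraries and 271 ± 2.74 FPKM in Fbxw11 libraries (mean ± SD, n = 3, as throughout). All 8 macrophage markers examined exceeded 1 FPKM, with means between 23.9 and 2487 FPKM, and their sum was higher in every Fbxw11 library (4620 to 4741 FPKM) than in every control library (4166 to 4337 FPKM). Fibroblast and epithelial markers did not reach 1 FPKM, with Cdh1 and Krt18 at 0 in every library. Of 4 T and B cell markers, Cd79a and Ms4a1 exceeded 1 FPKM, and these 4 summed to 3.36 to 3.66 FPKM in control libraries and 2.19 to 3.37 FPKM in Fbxw11 libraries. The part of these marker differences in the results was not tested. The libraries numbered 3 of both groups stood apart from the other 4 on the second principal component (23.7% of the variance). Calls among the nuclear pore genes, and in the lists of transport, envelope and cell division genes, are also given without both of them.

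Most nuclear pore genes were slightly lower in the Fbxw11 libraries, and 8 of the 28 tested fell: Nup85, Ndc1, Nup107, Nup43, Nup155, Nup214, Nup205 and Nup160. None rose. The falls were small, between 1.12-fold and 1.29-fold in mean FPKM. Tested genes averaged 1 FPKM or more across the 6 libraries. "Fell" and "rose" mean an adjusted p under 0.05 in limma on log2(FPKM + 1), with Benjamini-Hochberg adjustment over all 10898 genes tested. Over all those genes 9.24% changed, 4.64% falling and 4.6% rising, against 28.6% and 0% of the nuclear pore genes. At an unadjusted p under 0.05, 14 nuclear pore genes were lower and 0 higher, against 11.8% and 12.8% of all genes. Limma voom on recovered reads called 14 falls and 0 rises, against 9.53% and 4.77% of all genes.

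Direction was shared more widely than significance. The log2 fold change was below 0 in 24 of 28 nuclear pore genes, against 49.1% of all genes tested, and its median was -0.13 against 0.00 over all genes. In 15 of them every Fbxw11 library was lower than every control library, which held for 15.5% of all genes tested. In 1, Nup93, every Fbxw11 library was higher, against a background of 15.6%. In bulk RNA, fewer cells of a kind and less RNA per cell cannot be told apart, and this holds for every difference given here.

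The 8 falls depended on the libraries used. Falls over all genes also became fewer with fewer libraries, from 4.64% with all 6. Without control library 1 or control library 2 the call was left for Nup85 alone (1 of 28 in each case, against 2.14% and 2.01% of all genes). Without control library 3 or Fbxw11 library 2 there were 3 falls (3.34% and 2.62% of all genes). Without Fbxw11 library 1 there were 5, with Nup35 gained (2.81% of all genes), and without Fbxw11 library 3 there were 6 (3.51%). With both libraries numbered 3 left out, 3 remained called, namely Nup85, Nup107 and Ndc1, and no gene of the inner ring or the cytoplasmic side did. Of all genes 3.08% fell in that fit. Scaling each library to the same FPKM sum (the TPM scale) or to plain read sums gave 11 falls, adding Nup133, Nup210 and Tpr, and 0 rises. That scaling also changed the balance over all genes, to 353 rises and 717 falls on the TPM scale from 501 and 506.

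**Figure D1:**
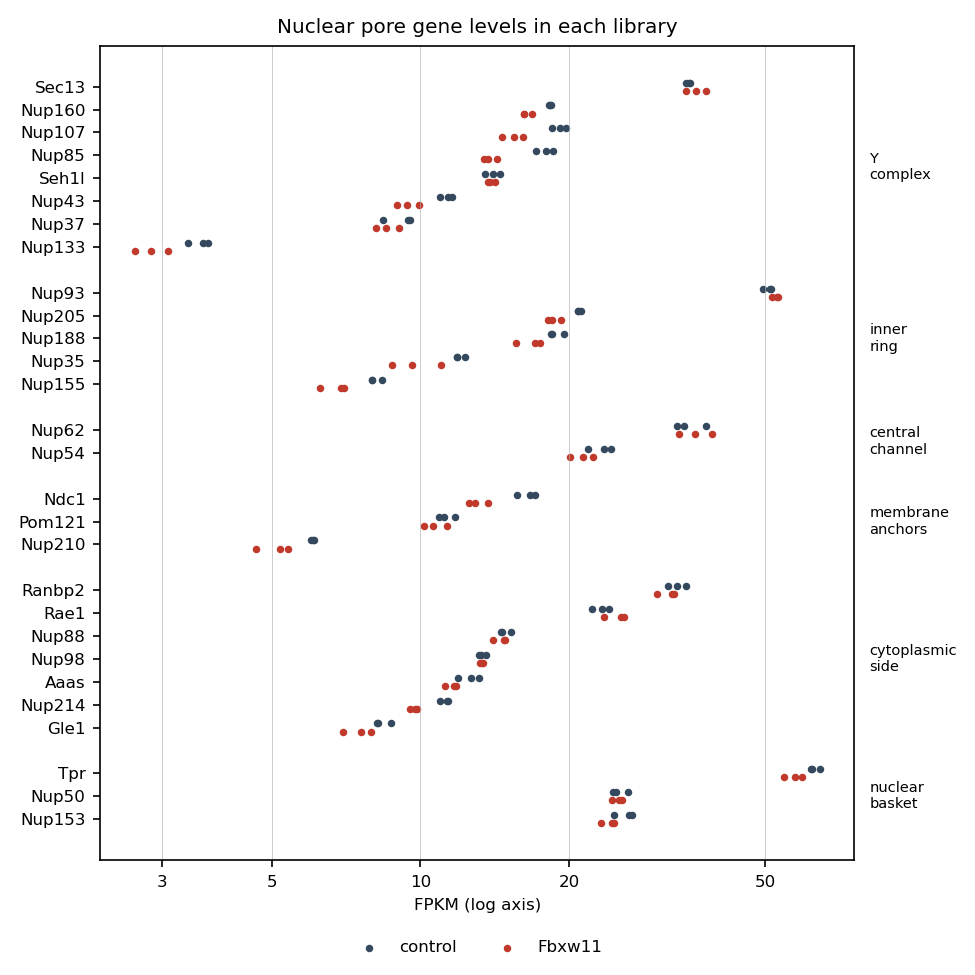
FPKM of the 28 tested nuclear pore genes in each library on a log axis, grouped by role and ordered by mean level within a role, with 1 point per library (dark, control; red, Fbxw11; n = 3 each). Levels run from below 5 FPKM for Nup133 to above 50 FPKM for Tpr and Nup93, and the red points lie to the left of the dark ones without overlap in 15 genes.

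Levels of the members differed far more among themselves than between the groups. Control means ran from 3.58 FPKM (Nup133) to 62.8 FPKM (Tpr), a 17.6-fold range, with a median of 17.2 FPKM. The order from the top in control libraries was Tpr, Nup93, Nup62, Sec13, Ranbp2, Nup153, Nup50, Rae1, Nup54, Nup205, Nup107, Nup188, Nup160, Nup85, Ndc1, Nup88, Seh1l, Nup98, Aaas, Nup35, Nup43, Pom121, Nup214, Nup37, Gle1, Nup155, Nup210 and Nup133. Of the 27 neighbouring pairs in this order, 12 overlapped in their control values, among them Nup62 with Sec13, Nup153 with Nup50, Rae1 with Nup54, and Nup107 with Nup188, Nup188 with Nup160 and Nup160 with Nup85. The reads behind a value ranged from 326 (Nup133) to 12494 (Tpr) per library. Within-group spread was small, with a median coefficient of variation of 3.39% in control and 4.44% in Fbxw11 libraries. None of the 9 highest members, Tpr to Nup54, passed the test, where 9.24% of all genes tested changed. Among them, Tpr passed on the TPM scale, with plain read sums and with voom, and Nup153 with voom. A link between level and the calls was not tested.

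The Y complex, which forms the outer rings, is the largest role here and held the most calls. Of its 8 members 4 (50%) fell and 0 rose (median log2 fold change -0.20), against 4.64% and 4.6% of all genes. At an unadjusted p under 0.05, 5 of the 8 were lower and 0 higher (11.8% and 12.8% of all genes), and voom called 5 falls and 0 rises (9.53% and 4.77%). Nup85, a subunit of the short arm, measured 17.96, 18.5 and 17.1 FPKM in control libraries 1 to 3 and 14.3, 13.7 and 13.5 FPKM in Fbxw11 libraries 1 to 3. The groups lay well apart, and Nup85 fell 1.29-fold (log2 fold change -0.35, SE 0.043, adjusted p = 0.00587), a call kept under all 17 alternative settings. The file places Nup85 (ENSMUSG00000020739) on chromosome 11 at 115455260 to 115474811, in coordinates with no stated build that do not match GRCm38, as for the other gene positions taken from it. Nup107, whose name the complex also carries, measured 19.7, 19.1 and 18.5 FPKM in control libraries and 16.2, 14.6 and 15.5 FPKM in Fbxw11 libraries. It fell 1.24-fold (-0.29, SE 0.047, adjusted p = 0.0135) with no overlap between groups, and missed the threshold when control library 1 or 2 was left out. Nup107 (ENSMUSG00000052798) lies on chromosome 10 at 117586526 to 117628610 in the file. Nup43, a β-propeller subunit of the same arm, measured 11.6, 10.97 and 11.4 FPKM in control libraries and 9.93, 9.39 and 8.99 FPKM in Fbxw11 libraries, and fell 1.20-fold (-0.24, adjusted p = 0.0257, lost under 8 of the 17). Its whole span in the file, 11379 bases, lies inside Pcmt1 on the opposite strand, which stood at 10.6 ± 0.903 and 9.97 ± 1.003 FPKM (adjusted p = 0.621). The sources used here do not say whether counting used strand, and reads of these 2 genes may be mixed.

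Nup160, the largest Y complex subunit in this list, was nearly level within the control group, at 18.3, 18.2 and 18.4 FPKM in control libraries and 16.3, 16.2 and 16.8 FPKM in Fbxw11 libraries. The groups did not overlap, and it fell 1.12-fold (log2 fold change -0.15, SE 0.033, adjusted p = 0.0380), a call also lost under 8 of the 17. Nup133, the lowest-level member tested, was at 3.39, 3.63 and 3.71 FPKM in control libraries and 2.85, 2.64 and 3.09 FPKM in Fbxw11 libraries. Its groups did not overlap either, but its adjusted p was 0.0623, and it passed on the TPM scale, with plain read sums and with voom. Nup37, another β-propeller subunit, overlapped between groups, at 9.12 ± 0.619 and 8.57 ± 0.470 FPKM (adjusted p = 0.481).

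The remaining pair of Y complex genes also serves other complexes. Seh1l, which is shared with the GATOR2 regulator of mTORC1, measured 14.5, 14.0 and 13.5 FPKM in control libraries and 13.7, 13.9 and 14.2 FPKM in Fbxw11 libraries. Its whole span in the file, 20612 bases, overlaps 4930549G23Rik on the opposite strand, which was at 1.30 ± 0.410 and 0.922 ± 0.111 FPKM. Sec13, which is shared with GATOR2 and with the COPII coat of vesicles leaving the endoplasmic reticulum, measured 35.0, 35.2 and 34.5 FPKM in control libraries and 36.2, 34.6 and 37.8 FPKM in Fbxw11 libraries. Both overlapped between groups, with log2 fold changes of -0.01 (95% interval -0.10 to 0.08) and 0.05 (-0.05 to 0.15). The intervals exclude a fall as large as that fitted for Nup85 or Nup107.

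Ratios of partner genes within a library do not depend on how libraries were scaled, so 3 were computed, chosen after the values were seen. The FPKM ratio of Nup85 to Seh1l, which bind each other directly, was 1.24, 1.32 and 1.27 in control and 1.04, 0.989 and 0.950 in Fbxw11 libraries. The ratio of Nup107 to Sec13 was 0.562, 0.544 and 0.537 in control and 0.447, 0.423 and 0.409 in Fbxw11 libraries. For the inner ring, the ratio of Nup205 to Nup93 was 0.421, 0.413 and 0.407 in control and 0.343, 0.358 and 0.365 in Fbxw11 libraries. Each sets a gene that fell over a partner that did not pass, so the lower ratios in the Fbxw11 libraries follow from the choice of pairs and are a description with no test.

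Inner ring genes, whose products line the pore membrane at its midplane, fell in 2 of 5 and rose in 0 (median log2 fold change -0.16). That is 40% falling, against 4.64% of all genes. At an unadjusted p under 0.05, 4 of the 5 were lower and 0 higher (11.8% and 12.8% of all genes), and voom called 4 falls and 0 rises (9.53% and 4.77%). Nup205, a large solenoid scaffold protein, measured 20.9, 21.1 and 20.9 FPKM in control libraries and 18.1, 18.5 and 19.3 FPKM in Fbxw11 libraries, and fell 1.12-fold (-0.16, SE 0.036, adjusted p = 0.0380). Nup155, which contacts the membrane and its anchors, measured 8.37, 7.98 and 7.999 FPKM in control libraries and 6.26, 6.90 and 7.02 FPKM in Fbxw11 libraries. It fell 1.21-fold (-0.24, SE 0.051, adjusted p = 0.0348), and neither gene overlapped between groups. Both calls were among those most often lost, under 10 and 9 of the 17 alternatives.

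Nup188, a relative of Nup205, was at 18.8 ± 0.636 and 16.8 ± 0.968 FPKM in control and Fbxw11 libraries (adjusted p = 0.110). Nup35 was at 12.01 ± 0.248 and 9.79 ± 1.14 FPKM, a 1.23-fold difference with a wide spread among the Fbxw11 libraries, at 11.02, 8.75 and 9.61 FPKM (adjusted p = 0.0776). Neither overlapped between groups. Nup35 shares 15126 bases of its span with Dusp19 on the same strand, which was at 1.67 ± 0.285 and 1.75 ± 0.0573 FPKM. Nup93, which ties the ring to the channel nucleoporins, went the other way, at 49.6, 51.2 and 51.3 FPKM in control libraries and 52.9, 51.6 and 52.9 FPKM in Fbxw11 libraries. The groups did not overlap, but the difference of 0.05 on the log2 scale (95% interval -0.02 to 0.12, adjusted p = 0.373) did not pass.

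Of the membrane anchors, 1 of 3 tested (33.3%, against 4.64% of all genes) fell and 0 rose (median log2 fold change -0.22). At an unadjusted p under 0.05, 2 of the 3 were lower and 0 higher (11.8% and 12.8% of all genes), and voom called 2 falls and 0 rises (9.53% and 4.77%). Ndc1, a membrane-spanning nucleoporin needed for pore insertion, measured 16.6, 17.0 and 15.7 FPKM in control libraries and 12.9, 12.6 and 13.7 FPKM in Fbxw11 libraries. The groups lay apart, and it fell 1.26-fold (-0.31, SE 0.048, adjusted p = 0.0120), a call lost without control library 1 or 2. The file has Ndc1 (ENSMUSG00000028614) on chromosome 4 at 107224981 to 107273543. Nup210, the glycoprotein of the pore membrane, was at 6.01, 6.10 and 6.08 FPKM in control libraries and 5.40, 4.65 and 5.19 FPKM in Fbxw11 libraries. It did not overlap between groups but missed the threshold (adjusted p = 0.0639). Nup210 passed on the TPM scale, with plain read sums and with voom. Pom121, which carries FG repeats on a membrane anchor, overlapped, at 11.3 ± 0.425 and 10.7 ± 0.593 FPKM (adjusted p = 0.470).

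**Figure D2:**
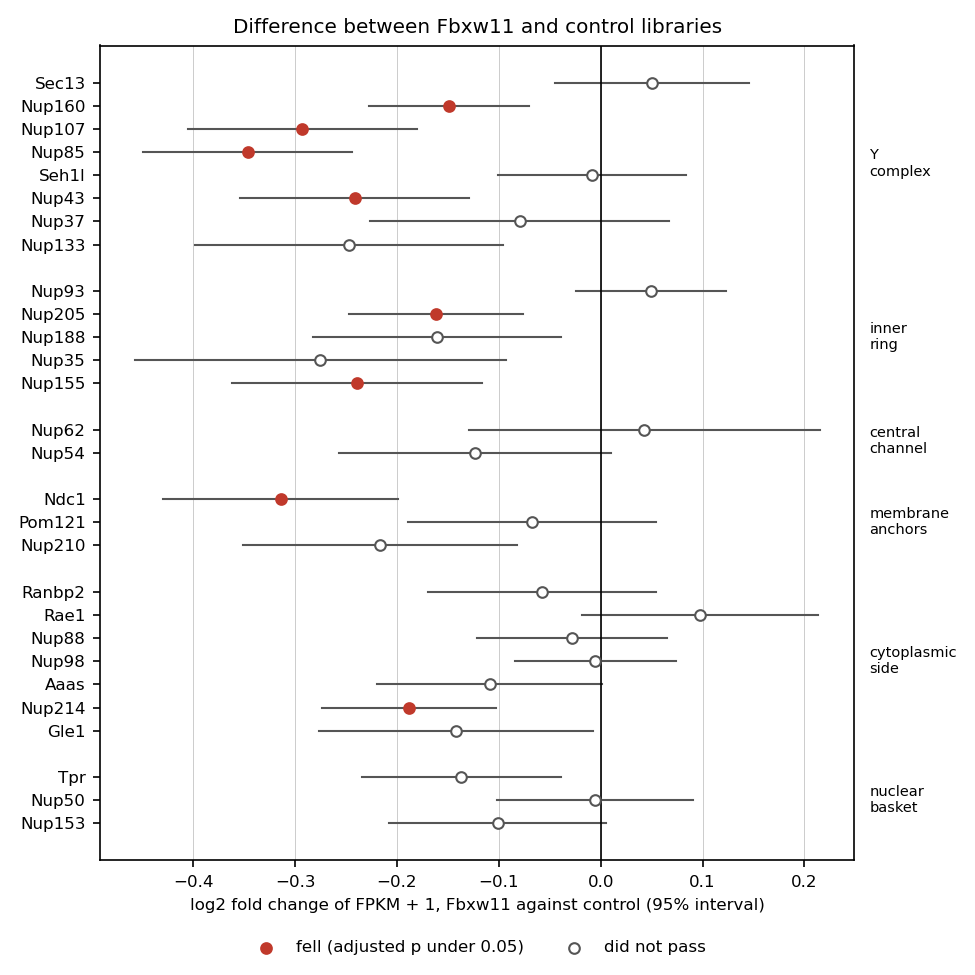
Log2 fold change of FPKM + 1 in Fbxw11 against control libraries for each tested nuclear pore gene, with its 95% interval from limma, grouped by role (filled, adjusted p under 0.05; open, did not pass). The 8 filled points lie between -0.35 (Nup85) and -0.15 (Nup160), and 4 genes, Sec13, Nup93, Nup62 and Rae1, lie above 0.

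On the cytoplasmic side 1 of 7 genes (14.3%, against 4.64% of all genes) fell and 0 rose (median log2 fold change -0.06). At an unadjusted p under 0.05, 2 of the 7 were lower and 0 higher (11.8% and 12.8% of all genes), and voom called 1 fall and 0 rises (9.53% and 4.77%). Nup214, whose product binds export factors, measured 11.4, 10.9 and 11.3 FPKM in control libraries and 9.76, 9.84 and 9.54 FPKM in Fbxw11 libraries. It fell 1.15-fold (-0.19, SE 0.036, adjusted p = 0.0240) with no overlap, though leaving out any single library ended the call. Its direct partner Nup88 overlapped between groups, at 14.8 ± 0.369 and 14.5 ± 0.450 FPKM (log2 fold change -0.03, adjusted p = 0.707).

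The other genes of this side did not pass. Gle1, which activates an RNA helicase at the filaments, was at 8.37 ± 0.322 and 7.50 ± 0.504 FPKM (adjusted p = 0.184), and Aaas, the gene of aladin, at 12.6 ± 0.606 and 11.6 ± 0.330 FPKM (0.208). In both, every Fbxw11 library was lower than every control library. Ranbp2, the giant Ran-binding filament protein, was at 33.1 ± 1.39 and 31.7 ± 1.33 FPKM (adjusted p = 0.504). Rae1, an mRNA export factor that binds Nup98, gave the highest fold change of the list, at 22.3, 24.1 and 23.3 FPKM in control libraries and 23.6, 25.8 and 25.5 FPKM in Fbxw11 libraries (log2 fold change 0.10, adjusted p = 0.274), with overlapping groups. Nup98, whose transcript also encodes the Y complex subunit Nup96, was nearly level, at 13.3, 13.6 and 13.2 FPKM in control libraries and 13.4, 13.4 and 13.2 FPKM in Fbxw11 libraries (log2 fold change -0.01, 95% interval -0.08 to 0.07).

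The nuclear basket and the central channel had no gene past the threshold, where 4.64% of all genes fell and 4.6% rose. With 3 and 2 genes tested, 0 calls cannot be told from those shares. At an unadjusted p under 0.05, 1 of 3 basket genes was lower and 0 of 2 channel genes passed (11.8% lower and 12.8% higher of all genes). Voom called falls of 2 basket genes, Tpr and Nup153, and 0 channel genes (9.53% falls and 4.77% rises of all genes). Tpr, the coiled-coil protein that builds the basket, measured 64.5, 61.9 and 62.1 FPKM in control libraries and 54.5, 57.5 and 59.3 FPKM in Fbxw11 libraries, without overlap (log2 fold change -0.14, adjusted p = 0.0932). Nup153, which docks the basket, was at 26.5, 26.8 and 24.7 FPKM in control libraries and 23.3, 24.5 and 24.7 FPKM with Fbxw11 (adjusted p = 0.223), and Nup50, a cofactor of importin recycling, at 25.3 ± 0.980 and 25.2 ± 0.598 FPKM (0.947). Their groups overlapped. In the channel, where Nup54 and Nup62 form a complex with Nup58, Nup54 was at 23.2 ± 1.26 and 21.3 ± 1.14 FPKM (adjusted p = 0.233) and Nup62 at 35.1 ± 2.57 and 36.2 ± 2.78 FPKM (0.764). Nup62 shares 571 bases with Atf5 on the opposite strand, and Atf5 rose from 53.0 ± 4.64 to 65.3 ± 2.03 FPKM (adjusted p = 0.0345), so reads of these 2 genes may also be mixed.

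Sorted by chemistry rather than place, the 9 tested genes of FG-rich nucleoporins, which are Nup35, Nup50, Nup54, Nup62, Nup98, Nup153, Nup214, Pom121 and Ranbp2, had 1 fall and 0 rises and a median log2 fold change of -0.07. That is 11.1% falling, against 4.64% of all genes. At an unadjusted p under 0.05, 2 of the 9 were lower and 0 higher (11.8% and 12.8% of all genes), and voom called 3 falls and 0 rises (9.53% and 4.77%). Whether the FG-rich genes differ from the scaffold genes was not tested. Summed over the 28 tested genes, nuclear pore transcripts came to 559, 564 and 562 FPKM in control libraries and 526, 521 and 535 FPKM in Fbxw11 libraries. The Y complex sum was 128 ± 1.45 and 117 ± 2.30 FPKM, while that of the cytoplasmic side was 117 ± 1.23 and 113 ± 2.72 FPKM.

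**Figure D3:**
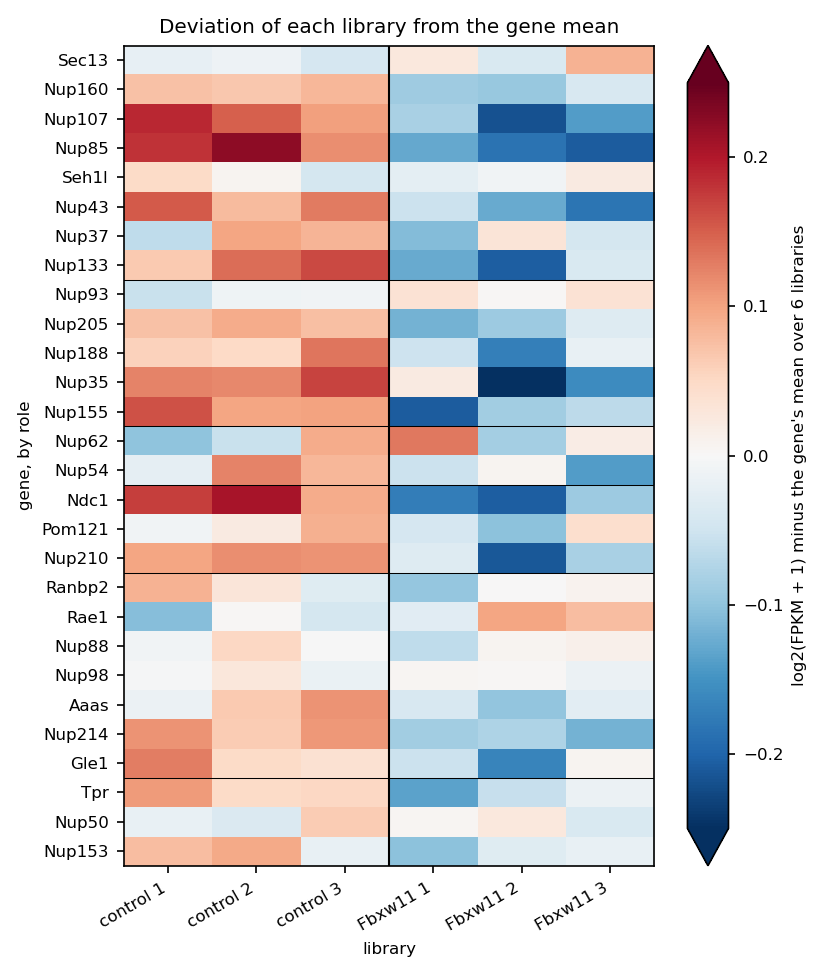
Log2(FPKM + 1) of each tested nuclear pore gene in each library minus that gene's mean over the 6 libraries (red above, blue below), with genes grouped by role as in the plot of levels. In each control library 17 to 24 of the 28 genes lie above their own mean, and in each Fbxw11 library 6 to 9 do.

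Counted by library, the genes above their own mean were most numerous in the control group. In control libraries 1, 2 and 3, 17, 24 and 20 of 28 genes lay above it, and in Fbxw11 libraries 1, 2 and 3, 6, 8 and 9 did. The 8 genes that fell lay above their mean in every control library and below it in every Fbxw11 library, which the call itself favours.

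The remaining 2 members were under the filter and were not tested. Nup210l, a paralog of Nup210, had 18 to 47 reads per library, at 0.308, 0.427 and 0.351 FPKM in control libraries and 0.193, 0.225 and 0.236 FPKM in Fbxw11 libraries. Nup62cl, an X-linked relative of Nup62, had 0 reads in each library.

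A further 5 genes of pore proteins lie outside the naming rule. Ahctf1, the gene of ELYS, which brings the Y complex to chromatin when pores reform, measured 10.3, 10.3 and 10.9 FPKM in control libraries and 9.11, 9.08 and 9.48 FPKM in Fbxw11 libraries. The groups did not overlap, and its adjusted p was 0.0518 (log2 fold change -0.17, SE 0.040). Mcm3ap, the scaffold of the TREX-2 export complex, was at 9.41 ± 0.278 and 9.86 ± 0.543 FPKM (adjusted p = 0.514), and Tmem33 and Nupl2 did not pass either. Nupl1, which encodes the channel nucleoporin Nup58, is listed at 0 in every library. The file places it on the same strand as the gene model Gm49336, which covers much of its span and was at 6.68 ± 0.232 and 6.30 ± 0.234 FPKM. The sources used here do not say how reads shared by overlapping models were assigned, and the 0 is not read as absence of the transcript.

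Promoters of 4 of the genes that fell are shown so that the letters before their start sites can be compared. These are the ones with a motif match among the 6 found, and those of Nup160 and Nup205, without a match, are not printed. Of the 30 members, 25 matched the RefSeq promoter table (GRCm38.p6), 24 of them tested, with 27 start sites. Nup85, Seh1l, Nup35, Nup43 and Nup210l had no entry. Each sequence below is the 250 bases before the start site, 5′ to 3′ on the gene's strand, in lower case with motif matches in capitals.
Ndc1 promoter, chr4:107367797-107368046, plus strand: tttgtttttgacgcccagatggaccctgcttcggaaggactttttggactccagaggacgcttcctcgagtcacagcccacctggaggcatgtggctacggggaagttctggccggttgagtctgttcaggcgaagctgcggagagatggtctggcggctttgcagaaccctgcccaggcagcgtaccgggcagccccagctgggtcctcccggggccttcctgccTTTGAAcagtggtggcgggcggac
Nup107 promoter, chr10:117792706-117792955, minus strand: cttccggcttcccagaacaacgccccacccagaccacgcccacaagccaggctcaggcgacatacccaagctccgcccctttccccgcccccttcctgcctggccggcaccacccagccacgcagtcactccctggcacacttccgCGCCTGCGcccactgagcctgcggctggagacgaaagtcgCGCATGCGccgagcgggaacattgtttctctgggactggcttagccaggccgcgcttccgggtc
Nup214 promoter, chr2:31974200-31974449, plus strand: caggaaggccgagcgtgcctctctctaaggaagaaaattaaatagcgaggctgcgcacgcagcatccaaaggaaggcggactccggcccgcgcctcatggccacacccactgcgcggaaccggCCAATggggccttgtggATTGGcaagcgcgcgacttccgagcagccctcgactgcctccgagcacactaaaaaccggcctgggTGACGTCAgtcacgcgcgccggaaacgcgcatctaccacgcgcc
Nup155 promoter, chr15:8109063-8109312, plus strand: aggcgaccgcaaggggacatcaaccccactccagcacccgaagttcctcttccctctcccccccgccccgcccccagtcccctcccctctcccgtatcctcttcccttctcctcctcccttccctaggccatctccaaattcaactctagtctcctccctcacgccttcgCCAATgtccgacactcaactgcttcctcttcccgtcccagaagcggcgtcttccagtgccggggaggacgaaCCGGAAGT

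Motifs were searched on both strands in these 250 bases: CCAAT, E2F-like TTNGCGC, the cell cycle homology region TTTGAA, NRF1-like CGCNTGCG, ETS-like CCGGAAGT, YY1-like AAGATGGC and the cAMP response element TGACGTCA. The capitals mark 1 cell cycle homology match in Ndc1, 2 NRF1-like matches in Nup107, 2 CCAAT matches and 1 cAMP response element in Nup214, and 1 CCAAT and 1 ETS-like match in Nup155, none of them overlapping. The promoters of Nup160 and Nup205 held none of these letters. Over the 27 promoters of tested members, 11 (40.7%) held CCAAT, against 35.4% of all promoters of tested coding genes. Nup93 and Nup37 are each counted for 2 starts in that 11. The cell cycle homology letters stood in 7 (25.9%, against 10.8%), with Nup37 counted for each of its 2 starts, whose 250 bases overlap and hold the same matches. The NRF1-like and ETS-like letters stood in 4 each (14.8%, against 15.4% and 6.75%), and the cAMP response element and the YY1-like letters in 2 each (7.41%, against 2.76% and 2.13%). E2F-like letters stood in 0, against 9.64%. The NRF1-like and YY1-like letters were shortened after the counts of longer forms had been seen. The longer forms, of 10 bases each (a further G before and C after the NRF1-like letters, and a further GG after the YY1-like letters), stood in 3 (11.1%, against 9.12%) and 0 (against 0.734%) of the 27 promoters. A match is a description of letters, not a binding site, and no motif was common to the 6 promoters of genes that fell.

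**Figure D4:**
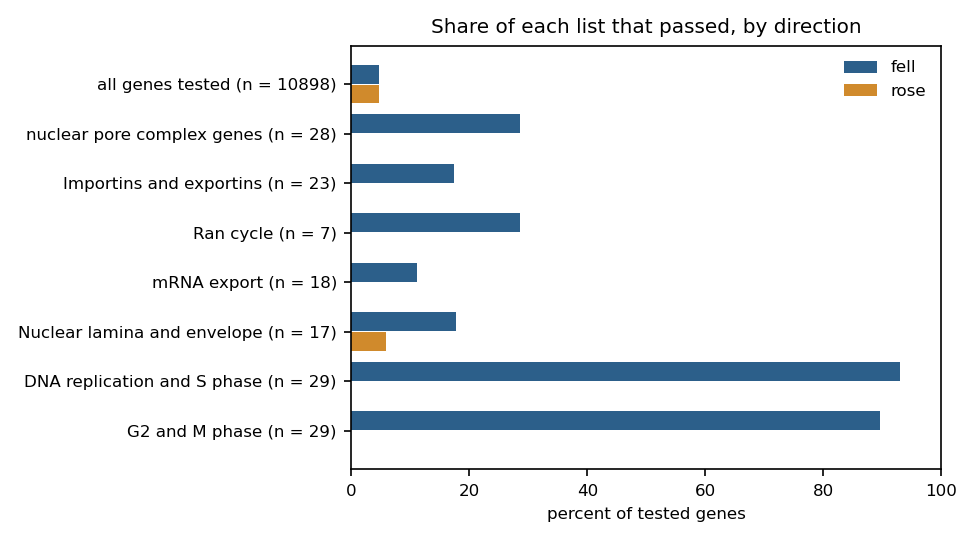
Percent of tested genes in each list that fell (blue) or rose (orange) at an adjusted p under 0.05, with the number tested in brackets. Nuclear pore genes stand at 28.6% falls beside 4.64% of all genes, and the S phase and G2 and M phase lists stand at 93.1% and 89.7%.

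Genes that work with the pore were counted in the same fit, from lists chosen with earlier results of these data known. Of 23 importins and exportins 4 fell (17.4%, against 4.64% of all genes) and 0 rose (median log2 fold change -0.10). At an unadjusted p under 0.05, 8 were lower and 0 higher (11.8% and 12.8% of all genes), and voom called 11 falls and 0 rises (9.53% and 4.77%). The 4 falls became 1 without both libraries numbered 3, with the replicate block or with no filter, 0 without control library 1, control library 2 or Fbxw11 library 2, and 1 or 2 without another single library. Cse1l, which returns importin alpha to the cytoplasm, fell from 35.6 ± 0.499 to 30.3 ± 1.14 FPKM (-0.22, adjusted p = 0.0161). Kpnb1, importin beta, fell from 86.0 ± 1.27 to 78.2 ± 0.988 FPKM (-0.14, adjusted p = 0.0351), Kpna2, an importin alpha, from 33.4 ± 0.733 to 29.9 ± 0.663 FPKM (-0.16) and Tnpo1, transportin, from 34.4 ± 0.903 to 29.8 ± 1.57 FPKM (-0.20). The last 3 calls were each lost under at least 10 of the 17 alternatives.

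Of 7 tested genes of the Ran cycle, which powers the direction of transport, 2 fell (28.6%, against 4.64% of all genes) and 0 rose. Without both libraries numbered 3, 1 fell. At an unadjusted p under 0.05, 2 were lower and 0 higher (11.8% and 12.8% of all genes), and voom called 2 falls and 0 rises (9.53% and 4.77%). Rangap1, the GTPase activator docked on Ranbp2, fell by 0.25 on the log2 scale, from 23.6 ± 0.758 to 19.6 ± 0.449 FPKM (adjusted p = 0.0110) and Ranbp1 from 46.3 ± 1.26 to 39.2 ± 2.86 FPKM (-0.24, adjusted p = 0.0491, lost under 9 alternatives). Of 18 mRNA export genes 2 fell (11.1%, against 4.64% of all genes) and 0 rose, and 2 fell without both libraries numbered 3. With the looser tests this list lay nearer the shares of all genes. Of the 18, 3 were lower and 1 higher at an unadjusted p under 0.05 (11.8% and 12.8% of all genes). Voom called 2 falls and 0 rises (9.53% and 4.77%). Nxt1, the small subunit of the export receptor, fell from 19.1 ± 0.0629 to 15.0 ± 0.553 FPKM (-0.33, adjusted p = 0.00401) and the adaptor Alyref from 19.2 ± 1.27 to 15.1 ± 0.758 FPKM (-0.32, adjusted p = 0.0206, lost under 5 alternatives).

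Among 17 genes of the nuclear lamina and envelope 3 fell and 1 rose (median log2 fold change 0.00), or 2 and 0 without both libraries numbered 3. These are 17.6% and 5.88%, against 4.64% and 4.6% of all genes. At an unadjusted p under 0.05, 5 were lower and 2 higher (11.8% and 12.8% of all genes), and voom called 5 falls and 1 rise (9.53% and 4.77%). Tmpo, of lamina-associated polypeptide 2, fell 1.47-fold, from 13.3 ± 0.444 to 9.03 ± 0.174 FPKM (-0.51, with an SE of 0.039 and adjusted p = 0.00126), and Lbr, the lamin B receptor, fell 1.37-fold from 17.8 ± 0.645 FPKM (-0.42, adjusted p = 0.00248). Both exceeded the fall fitted for any nuclear pore gene, a difference that was not tested. Lmna, the gene of lamins A and C, fell from 43.2 ± 2.46 to 36.9 ± 0.830 FPKM (-0.22, lost under 9 alternatives). Tor1aip2, which encodes an activator of torsins, rose from 40.5 ± 0.776 to 45.4 ± 1.33 FPKM (0.16, lost under 12 alternatives).

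Most genes of the cell division lists fell. Of 29 genes of DNA replication and S phase 27 fell (93.1%) and 0 rose (median log2 fold change -0.44). Of the 29 in the G2 and M phase list 26 fell (89.7%), again with 0 rises (-0.48). Over all genes 4.64% fell and 4.6% rose. In either list 0 were higher at an unadjusted p under 0.05 or by voom, against 12.8% and 4.77% of all genes. Without both libraries numbered 3 the falls were 20 and 21, and 3.08% of all genes fell. Of the S phase list, the helicase genes Mcm6 and Mcm7 fell, the one from 57.6 ± 1.46 to 36.5 ± 0.269 FPKM (-0.64) and the other from 25.2 ± 0.230 to 17.1 ± 0.398 FPKM (-0.54). Uhrf1, a cofactor of maintenance DNA methylation, dropped to 13.9 ± 0.253 from 22.3 ± 0.369 FPKM (-0.65), and Rrm2, needed to make deoxynucleotides, to 23.1 ± 1.04 from 38.4 ± 0.161 FPKM (-0.71). Of the G2 and M phase list, Mki67, the gene of the proliferation marker Ki-67, fell from 21.6 ± 0.371 to 12.7 ± 0.668 FPKM (-0.73), and Cenpe, a kinetochore motor, from 10.8 ± 0.265 to 6.97 ± 0.0902 FPKM (-0.57). Bub1, a kinase of the spindle checkpoint, fell from 17.0 ± 0.295 to 10.5 ± 0.644 FPKM (-0.64), and Hmmr, of a spindle-associated protein, from 6.92 ± 0.186 to 4.34 ± 0.145 FPKM (-0.57). These 8 genes had adjusted p between 0.000377 and 0.00126, and each call held under all 17 alternatives. Differences in size between these lists and the nuclear pore genes were not tested. Summed FPKM over the S phase list was 594 ± 15.4 in control and 421 ± 5.71 in Fbxw11 libraries, and over the G2 and M phase list 269 ± 2.01 and 182 ± 1.53. Summed nuclear pore transcripts were 562 ± 2.42 and 527 ± 7.24 FPKM. The part of the drop in cell division transcripts in the nuclear pore result was not tested.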

How the data were processed

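RNA sequencing libraries of sorted RAW264.7 cells, 3 with the Fbxw11 vector and 3 with the control vector, were grouped by their titles. The deposited values are FPKM, scaled by the authors to gene length and library size. Per the submitters' processing notes, the genome was mm10. The sources used here do not give the aligner, counting tool, annotation release, strand setting or filters. Gene coordinates in the file have no stated build and are given as they stand. They are not GRCm38 (mm10) positions: 0 of the 30 members have the start and end of GENCODE vM21, though all 30 have the same span length, so they cannot be set against the GRCm38.p6 promoter positions. FPKM times gene length gave whole multiples of a step per library (100% of values within 0.02 reads), from which reads were recovered. The authors' library size was 1.014 to 1.018 times the read sum in control and 0.987 to 0.993 times in Fbxw11 libraries.

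The 10898 genes averaging 1 FPKM or more were fitted as log2(FPKM + 1) with limma 3.58.1 in R 4.3.3 (trended eBayes, two-sided, no covariate), adjusted by Benjamini-Hochberg over all of them. This scale understates changes of low genes. The procedure was tested on simulated counts. Members and lists were chosen with earlier results of these data known, and no set test was run. Every member is named, and 1 marker gene is not reported here. From other lists up to 4 genes past the threshold with the smallest p are named, filled up to 2 by level. The 17 alternatives varied the pseudocount, filter, scaling, test, replicate block and libraries. Depth was 16191971 to 18951653 reads per library, which without molecular identifiers bears on counting error only.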

Additional observations from a re-analysis of the deposited data

How the results depend on the processing

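Over the 28 tested genes and 17 alternatives, 408 of 476 values kept their direction and their side of the threshold, 47 lost a call, 13 gained it and 8 changed sign. All 47 losses lay in the 8 genes that fell, from 0 of 17 for Nup85 to 10 of 17 for Nup205. Most of the 408 kept values belong to genes that were not called. Nup85 kept its call throughout. No alternative gave a nuclear pore gene that rose. Falls numbered 5 with no filter on low values, 14 with voom, 3 with both libraries numbered 3 left out and 1 to 6 with a single library left out. Over all genes, rises and falls were 289 and 307 with no filter, 1039 fell with voom, 336 fell without both libraries numbered 3, and 190 to 418 rose and 219 to 383 fell without a single library. Signs changed only for genes near 0, namely Nup50 (log2 fold change 0.0428 without both libraries numbered 3, and -0.0253 to 0.0247 without a single library), Nup62 (-0.0118 to 0.10), Seh1l (-0.0318 to 0.0140) and Nup98 (-0.0151 to 0.00749). With fewer libraries there are fewer degrees of freedom; otherwise the cause was not tested. The TPM scale moved the median of all genes to -0.03 from 0.00.

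Libraries of the same number gave correlations of deviations of 0.0361, 0.0405 and 0.189 for numbers 1, 2 and 3. The value for number 3 was the highest of all control and Fbxw11 pairs, and both libraries numbered 3 stood apart on the second principal component. Whether a shared number marks a batch or a pairing was not tested. The fit with the replicate block called 3 nuclear pore falls, and 303 rises and 318 falls over all genes; control library 1 correlated best with Fbxw11 library 2, not with its own number.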
